A study of Mus musculus with 2 samples.

Results

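The S100 genes encode small calcium-binding proteins of the EF-hand type. The family was examined here as 10 genes, S100a1, S100a3, S100a4, S100a6, S100a8, S100a9, S100a10, S100a11, S100a13 and S100a16, taken by gene name from a table of 55414 genes. All 10 lie on chromosome 3. The RNA came from NHOS, a line of mouse osteosarcoma cells, and was sequenced from a mock-transfected culture (1 library) and from a culture transfected with IL10RB (1 library), which encodes a receptor chain used by interleukin-10 and several related cytokines. Both cultures grew in serum-containing medium with G418. Neither the species nor the promoter of the IL10RB construct is stated, nor whether the transfected cells are a clone or a pool. With 1 library per group there was no test and no SD between replicates, and every difference below is between 2 libraries without a replicate check.

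S100 proteins work mostly as dimers. Calcium opens a hydrophobic surface on each subunit that grips target proteins such as annexins, non-muscle myosin and p53, and several members are also released from cells and act through the receptor RAGE or Toll-like receptor 4. S100a4 is known for its link to cell motility and metastasis and, in bone, as a brake on matrix mineralisation by osteoblasts. S100a8 and S100a9 form calprotectin, an abundant protein of neutrophils and monocytes.

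The promoters of the members past 50 counts that differ most are shown first, with one silent member for contrast. RefSeq promoter windows of 300 bases (250 before and 50 after the gene start, build GRCm38.p6) were matched for 9 of the 10 genes. S100a4 (chr3:90603520-90603819, plus strand) and S100a11 (chr3:93520246-93520545, plus strand) are the genes with at least 50 counts that stood at least 2-fold higher in the transfectant library. S100a8 (chr3:90668821-90669120, plus strand) had no read in either library. Capitals mark every match to the 6 motifs searched.
S100a4: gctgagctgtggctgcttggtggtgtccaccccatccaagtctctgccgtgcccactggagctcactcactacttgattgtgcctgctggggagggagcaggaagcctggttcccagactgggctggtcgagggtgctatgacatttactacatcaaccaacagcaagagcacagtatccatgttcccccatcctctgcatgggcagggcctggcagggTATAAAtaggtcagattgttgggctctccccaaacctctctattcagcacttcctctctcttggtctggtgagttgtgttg
S100a8: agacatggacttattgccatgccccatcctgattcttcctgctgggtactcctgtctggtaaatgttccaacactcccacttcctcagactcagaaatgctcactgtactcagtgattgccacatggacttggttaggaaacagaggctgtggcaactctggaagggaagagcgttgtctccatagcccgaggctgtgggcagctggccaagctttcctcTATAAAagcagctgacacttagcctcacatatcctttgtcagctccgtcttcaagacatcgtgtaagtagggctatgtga
S100a11: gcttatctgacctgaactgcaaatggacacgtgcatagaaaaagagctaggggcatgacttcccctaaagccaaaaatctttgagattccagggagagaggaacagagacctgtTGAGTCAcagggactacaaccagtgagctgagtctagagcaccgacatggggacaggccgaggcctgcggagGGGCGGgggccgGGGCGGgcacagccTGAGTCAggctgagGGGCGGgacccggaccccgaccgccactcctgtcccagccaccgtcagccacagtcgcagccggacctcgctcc

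The motifs, searched on both strands, were TTCNNNGAA (the GAS element of STAT factors), the core of the interferon-stimulated response element (ISRE), TGANTCA (AP-1), TATAAA, called the TATA box, TTNNGCAA (C/EBP) and GGGCGG (GC box). In the printed windows no matches overlap each other. The S100a4 window holds 1 TATA box, which begins 31 bases before the gene start. The S100a8 window also holds 1, beginning 30 bases before the start. The S100a11 window holds no TATA box, but 2 AP-1 matches and 3 GC boxes, and its windowed sequence has 15 CpG pairs against 2 in S100a4. The median over all windows was 7 CpG pairs, and the windows of S100a13 and S100a1 held 14 and 11. No GAS or ISRE match was found in any of the 13 windows of the 9 genes. Across all 32851 windows of the same length, 13.6% hold a TATA box, 7.81% an AP-1 match, 35.7% a GC box, 8.30% a GAS match, 3.44% an ISRE match and 10.8% a C/EBP match. These matches describe letters and are not binding sites.

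Depth and label checks are common to all results. The total of the estimated counts was 18766040 for mock and 23898112 for the transfectant. Il10rb stood at 26.2 CPM (a count relative to library size, after scaling the libraries to each other) against 67.5 CPM. It was higher in the library labelled as transfected, by a ratio of 2.57 (2.32 to 2.85). Its log2 fold ranked 1574th from the top among the 11952 genes with at least 50 counts. Of those genes 19.7% were at least 2-fold higher, so this difference alone is a weak check of the label. Of 11 osteoblast markers 9 had at least 50 counts in a library, among them the transcription factors Runx2 (103 and 136 CPM) and Sp7 (182 and 166 CPM) and the phosphatase Alpl (2134 and 1508 CPM). Of these 9, 3 were higher by 2-fold or more and 0 lower by as much (33.3% and 0, beside 19.7% and 11.9% of all genes). The 3 higher ones were the matrix protein genes Ibsp (8.86-fold), Bglap (5.64-fold, from fractional counts) and Spp1 (4.05-fold). Levels between genes are compared in the deposited TPM, which is scaled for gene length. Differences between libraries are ratios of CPM, transfectant over mock. Intervals are exact 95% intervals that cover counting error only.

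The S100 pool was larger in the transfectant library and had another make-up. The 10 genes together made up 0.350% of all TPM in mock and 0.754% in the transfectant, with summed levels of 3497 and 7538 TPM. The sum was 2.16-fold higher with all 10 genes, 1.65-fold higher without S100a4, and 1.36-fold higher without both S100a4 and S100a11. S100a4 supplied 5.09% of the S100 pool in mock and 27.2% in the transfectant, whereas the share of S100a6 was 39.1% and 28.3% and that of S100a10 was 26.5% and 13.4%. S100a11 held 26.7% and 29.8%. In RNA from whole cultures, a change in the number of cells that express a gene and a change in RNA per cell cannot be told apart.

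**Figure D1:**
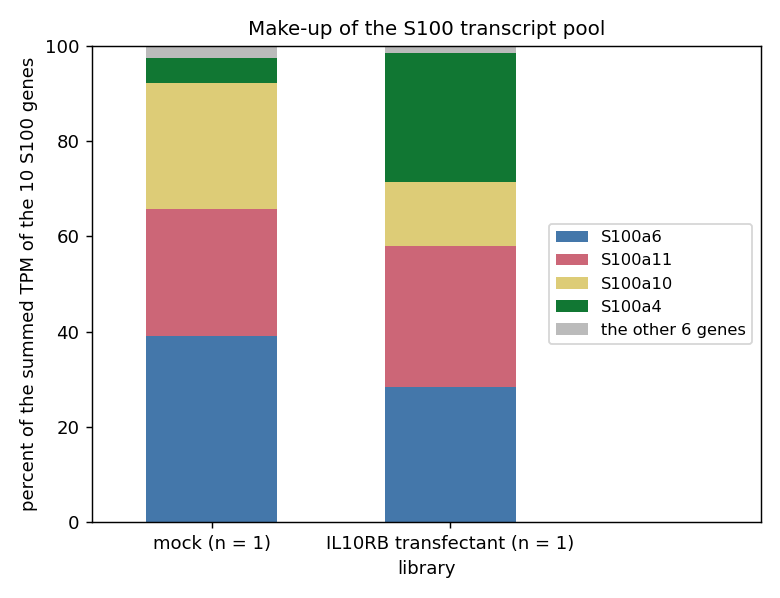
Stacked bars give the percent of the summed deposited TPM of the 10 S100 genes held by each gene in the mock and the IL10RB-transfectant library (1 library each). The S100a4 segment is 5.09% in mock and 27.2% in the transfectant, and the S100a10 segment 26.5% and 13.4%.

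Of the 10 genes, 7 had at least 50 counts in 1 library. Among these, S100a4 and S100a11 (2 genes) stood at least 2-fold higher in the transfectant on the scale of log2(CPM + 0.5), and 0 stood lower by that much. Across all 11952 genes with that many counts, the share at least 2-fold higher was 19.7% and the share at least 2-fold lower was 11.9%. With 7 genes, a count of 2 is near the general share and is not a result about the family as a whole. The median log2 fold of the 7 was 0.58, from -0.00 in S100a3 to 3.54 in S100a4, beside a median of 0.07 over all genes. The members and lists were chosen with earlier results of these data known.

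**Figure D2:**
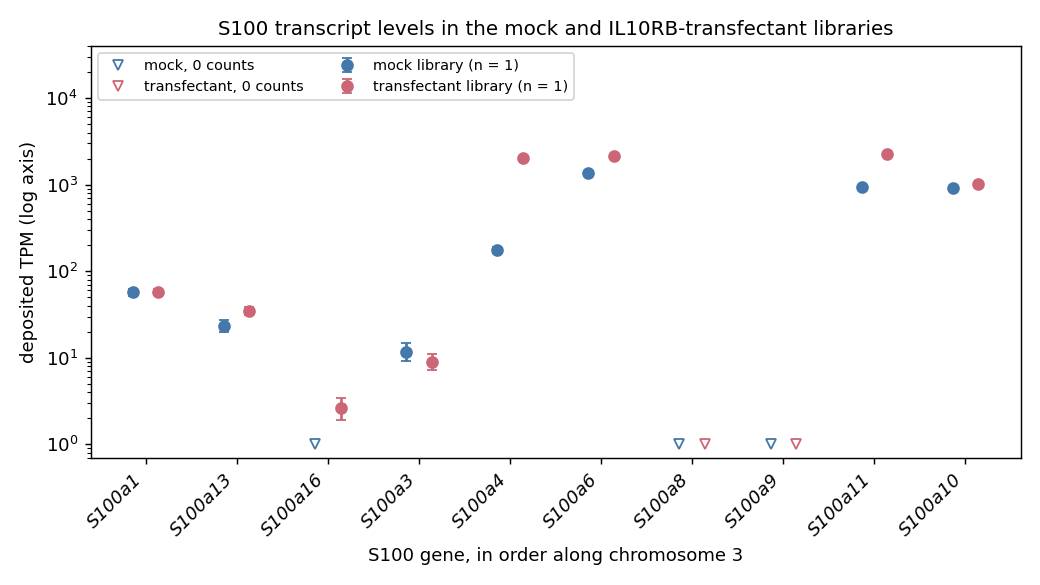
Points give the deposited TPM (log axis) of each S100 gene in the mock and the transfectant library (1 library each), in order along chromosome 3, with 95% counting intervals that are smaller than the point for abundant genes. Open triangles at the foot stand for 0 counts and not for a level of 1 TPM. S100a4 moves from 178 TPM to the level of S100a6 and S100a11.

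S100a4, the metastasis-associated member that binds non-muscle myosin IIA, differed most among the 7 genes past 50 counts. It had 649 counts in the mock library against 10064, or 178 TPM (165 to 192) and 2050 TPM (2010 to 2091). The transfectant library was the high one, 11.8-fold above mock by CPM (10.9 to 12.8). In mock the gene ranked 1071st by TPM among the 11952 genes past 50 counts, and in the transfectant 41st. Its log2 fold of 3.54 ranked 128th from the top among the same genes. The gene (ENSMUSG00000001020.9) is placed on chromosome 3, plus strand, 90511078 to 90513352, in the deposited table, whose build is not given in the sources used here. A predicted gene, Gm42674, overlaps it on the same strand and had 0 counts in both libraries.

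S100a4 is itself used as a fibroblast marker and is also made by myeloid cells, so both marker lists were set beside it. Of 9 fibroblast markers 6 had at least 50 counts. All 6 had at least 2-fold more in the transfectant, beside 19.7% of all genes with that many counts. Among them, Ly6c1 (29 and 710 counts) reached 50 counts only in the transfectant. The list summed to 108 CPM in mock against 355 CPM, with the receptor Pdgfra at 12.1 and 62.2 CPM, the proteoglycan Lum at 16.6 and 91.0 CPM, and Thy1 at 1 and 0 counts. Their part in the S100a4 difference was not tested. Of 12 myeloid markers, Tyrobp, Itgam, Ly6g and Elane had 0 counts in both libraries, and Ptprc, which all leukocytes express, had 27 in mock against 0. Past 50 counts were 4 of them, 2 at least 2-fold higher and 2 lower by that much, beside 19.7% and 11.9% of all genes. The higher ones were Lyz2 and Cd68 (12 and 150 counts), and the lower ones Mpo (150 and 54) and Csf1r (57 and 24). Under 50 counts, Fcer1g had 6 and 36, Spi1 3 and 0, and Adgre1 1 and 0. With 4 genes past 50 counts, these are not results about the list. The myeloid list summed to 14.1 and 36.6 CPM, of which the lysozyme gene Lyz2 alone gave 0.271 and 25.8 CPM.

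S100a11, which binds annexin A1 and takes part in membrane repair, was the other gene past 2-fold. It had 3593 and 11532 counts, at 934 TPM in mock and 2243 TPM in the transfectant. The ratio by CPM was 2.44 (2.35 to 2.53). S100a11 was also the one member with fractional counts (3593.04 and 11531.8 before rounding), the mark of reads assigned to more than 1 gene, and the processed pseudogene S100a11-ps, on chromosome 12, is listed with 0 counts in both libraries. S100a11 (ENSMUSG00000027907.5, plus strand, chromosome 3 from 93427795 to 93433594) lies 2825 kb beyond S100a9, in a separate pair with S100a10.

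S100a6 and S100a13 were higher in the transfectant by less than 2-fold. S100a6, or calcyclin, a member induced in proliferating cells that binds annexin A11 and the calcyclin-binding protein, was the most abundant member in mock. It had 6170 and 13276 counts, or 1367 TPM (1333 to 1401) and 2134 TPM (2098 to 2171), and a CPM ratio of 1.63 (1.58 to 1.68). S100a13, which takes part in the release of FGF1 from cells, had 165 and 331 counts at 23.3 and 34.7 TPM. Its CPM ratio was 1.52 (1.26 to 1.85). Both intervals lie above 1 and below 2.

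S100a10, S100a1 and S100a3 were near equal in the 2 libraries. S100a10, or p11, pairs with annexin A2 and brings plasminogen activation to the cell surface. It had 6142 and 8901 counts, 927 and 1006 TPM, with a CPM ratio of 1.10 (1.06 to 1.14). S100a1, best known as a regulator of calcium cycling in heart muscle, had 365 and 495 counts, 56.8 and 57.8 TPM, and a ratio of 1.03 (0.897 to 1.18). S100a3, a protein of the hair follicle cuticle, had 70 and 92 counts with a CPM ratio of 0.997 (0.723 to 1.38), and its deposited TPM was 11.7 in mock and 9.01 in the transfectant. The intervals of S100a1 and S100a3 include 1, and differences within them were not detectable at this depth. S100a3 overlaps S100a2 by 6873 bases on the same strand, and reads in that stretch cannot be assigned for certain.

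**Figure D3:**
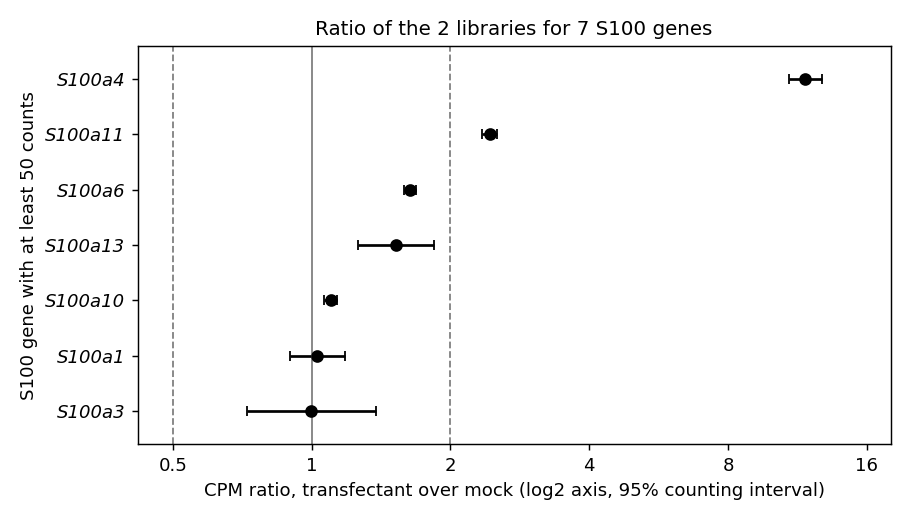
Points give the CPM ratio, transfectant over mock, of the 7 S100 genes with at least 50 counts in 1 library, on a log2 axis with exact 95% counting intervals. The solid line marks a ratio of 1 and the dashed lines 2-fold either way, and S100a4 (11.8) and S100a11 (2.44) lie beyond the upper line.

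The remaining 3 members were at or near silence. S100a8 and S100a9 had 0 counts in both libraries, which at 3 counts allows up to 0.163 and 0.123 CPM in mock and transfectant. S100a16, a broadly expressed member with a degenerate calcium-binding loop, had 49 counts in the transfectant and 0 in mock, 1 short of the threshold of 50. Set against 3 counts in mock, it was 12.4-fold higher, and the exact interval of the ratio has its lower end at 9.71-fold. Its level in the transfectant was 2.02 CPM (1.49 to 2.66) and 2.62 TPM.

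The order of levels within the family differed between the libraries. In mock, S100a6 stood first at 1367 TPM, S100a11 (934) and S100a10 (927) had overlapping counting intervals, and S100a4 came next, ahead of S100a1, S100a13 and S100a3. In the transfectant, S100a11 (2243 TPM), S100a6 (2134) and S100a4 (2050) led, followed by S100a10 at 1006 TPM. The intervals of the first 3 did not overlap, but counting error is the smallest error these values can have. Below S100a10 the order of S100a1, S100a13 and S100a3 was the same in both libraries, with S100a16 last in the transfectant.

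The other S100 genes contributed little. Of 8 with a row in the table, S100a7a alone reached 50 counts, at 53 in mock and 48 in the transfectant, a ratio of 0.687 (0.455 to 1.04). S100b, the glial and cartilage member on chromosome 10, had 0 and 38 counts and was 9.61-fold higher against 3 counts, with the lower end of the exact interval at 7.44-fold. S100a2 had 5 and 1 counts, S100a7l2 3 and 0, and S100a14 0 and 3. S100a5, S100g and S100z had 0 in both. The 7 genes for larger proteins with an S100-like domain, which build the outer skin layer and lie between the S100 groups on chromosome 3, had 0 members past 50 counts. Among them Rptn had 13 and 0 counts, Flg2 9 and 0, and Flg 7 and 0.

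Position along the chromosome was set beside the differences. The 15 S100 genes of chromosome 3 span 3.05 Mb in the deposited table. Neighbours among the 10 members did not stand alike. S100a3 (log2 fold -0.00) ends 1068 bases before S100a4 (3.54). S100a6 (0.71) begins 6836 bases beyond S100a4, with S100a5 (0 counts in both libraries) between them. S100a1 (0.04) and S100a13 (0.58), which face away from each other, are 42 bases apart. S100a11 (1.28) and S100a10 (0.14) are separated by 28.8 kb. From 500 kb before to 500 kb after the group, 20 other genes reached 50 counts, and 4 of them were 2-fold higher or more while 2 were lower by as much (20.0% and 10.0%, beside 19.7% and 11.9% of all genes), with a median log2 fold of -0.42. The higher ones were the natriuretic peptide receptor gene Npr1 (2 and 83 counts, 31.5-fold, 8.45 to 264), the transcription factor gene Creb3l4 (2 and 149 counts, 56.5-fold, 15.4 to 471), the fatty acid transport gene Slc27a3 (2.62-fold) and the vesicle protein gene Snapin (2.20-fold). Gatad2b was 2.52-fold lower and Gm53012 2.21-fold lower. Strictly between the outermost S100 genes, 3 of 112 genes had 50 counts, S100a7a, Gm9774 and the pseudogene Gm4202, and 84 had none in either library.

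**Figure D4:**
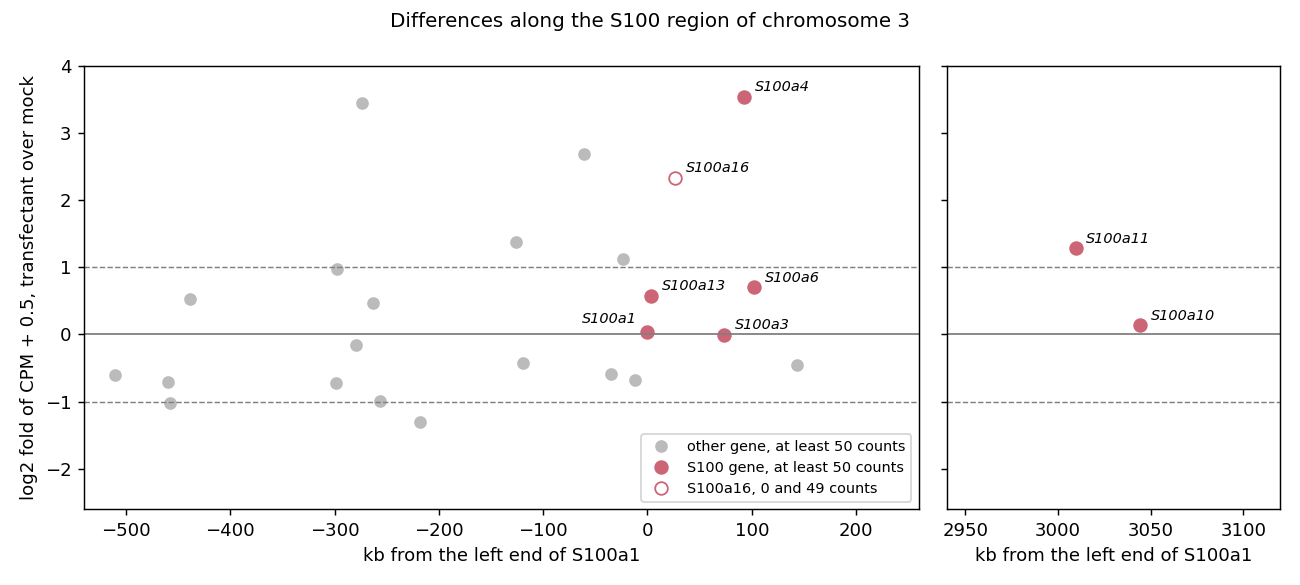
The log2 fold of CPM + 0.5 (transfectant over mock) is plotted against the distance in kb from the left end of S100a1, with the x axis broken between the main group and the S100a11 and S100a10 pair; Gm9774 and Gm4202 lie in the gap and are not drawn, and S100a7a is among the grey points. S100a4 at 3.54 sits between S100a3 at -0.00 and S100a6 at 0.71, and dashed lines mark 2-fold.

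Annexins, the calcium-dependent membrane-binding partners of several S100 proteins, were set beside the members they bind. Of 12 annexin genes 10 had at least 50 counts, 2 stood at least 2-fold higher and 1 lower by that much, and their median log2 fold was 0.30. These shares of 20.0% and 10.0% are near those of all genes (19.7% and 11.9%), and the median was 0.11 after centring by gene length and 0.15 with a floor of 200 counts. Anxa1, a partner of S100a11, was at 215 and 572 CPM, a ratio of 2.66 (2.57 to 2.76) beside 2.44 for S100a11. Anxa2, a partner of S100a10, was at 1570 and 1650 CPM, a ratio of 1.05 (1.04 to 1.07) beside 1.10 for S100a10. Anxa11, a partner of S100a6, was at 12.6 and 21.2 CPM, a ratio of 1.68 (1.44 to 1.97) beside 1.63 for S100a6. Other partners did not stand alike: Cacybp, the calcyclin-binding protein gene, was at 0.604 beside 1.63 for its partner S100a6, and Myh9, a non-muscle myosin heavy chain gene, at 0.889 beside 11.8 for S100a4. The pairs were named with their values seen, and no likeness was computed from 2 libraries.

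Among the remaining annexins, Anxa6, which acts in membrane traffic, was at 290 CPM in mock against 870 CPM. Anxa8 had 202 and 2 counts, 133-fold lower (36.4 to 1106). Anxa9 had 24 and 66 counts, with a CPM ratio of 2.09 (1.29 to 3.48) that stays under 2-fold on the scale with a pseudocount. Anxa3 was at a ratio of 1.36.

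Of 19 genes for intracellular targets of S100 proteins, 13 had at least 50 counts, 1 stood at least 2-fold higher and 4 lower by that much, and their median log2 fold was -0.73 (7.69% and 30.8%, beside 19.7% and 11.9% of all genes). The median was -0.42 after centring by gene length. Ppfibp1, which encodes the S100a4 partner liprin beta-1, was 2.56-fold lower (2.48 to 2.64), at 640 and 250 CPM. Trp53, which encodes the p53 tumour suppressor bound by several members, was 2.34-fold lower (2.07 to 2.66), and its ubiquitin ligase gene Mdm2 2.52-fold lower (2.37 to 2.68). Atp2a2, the calcium pump gene whose product S100a1 regulates in muscle, was 2.32-fold lower (2.24 to 2.39). Capns1, the small calpain subunit gene, was 2.06-fold higher (1.81 to 2.35), while the scaffold gene Iqgap1 was at a ratio of 0.545.

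Of the receptors through which S100 proteins act outside cells, 7 of 9 reached 50 counts, with 3 at least 2-fold higher, 0 lower by that much (42.9% and 0, beside 19.7% and 11.9% of all genes) and a median log2 fold of 0.99. The median was 0.63 without a floor and 0.67 after centring by gene length. Tlr4, the receptor of calprotectin, was at 14.7 and 31.1 CPM (ratio 2.11, 1.84 to 2.43). The other receptors past 2-fold were Nptn, which binds S100a8 in human cells (2.11), and Alcam (2.73). Cd14, the Tlr4 co-receptor, had a CPM ratio of 2.09 and stayed just under 2-fold with a pseudocount. The Tlr4 accessory gene Ly96 was at a ratio of 0.755 and Mcam at 1.21. Ager, the gene for RAGE, had 8 and 10 counts.

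Of 8 plasminogen activation genes, the surface pathway that S100a10 and annexin A2 serve, 4 had at least 50 counts. Of these 4, 1 was at least 2-fold higher and 0 lower by that much, beside 19.7% and 11.9% of all genes. With 4 genes, this count is not a result about the pathway. The higher gene was Plau, which encodes urokinase, at 3.63 and 13.0 CPM (3.58-fold, 2.74 to 4.73). Plat, the tissue plasminogen activator gene, was at a ratio of 0.891, the urokinase receptor gene Plaur at 0.561 and the plasminogen receptor gene Plgrkt at 1.35.

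Of 31 other EF-hand genes, 26 had at least 50 counts. Of these, 7 (26.9%) stood at least 2-fold higher and 1 (3.85%) lower, beside 19.7% and 11.9% of all genes. The median log2 fold of the 26 was 0.45, beside 0.07 over all genes. Tesc, a regulator of sodium-proton exchange, was 13.0-fold higher (8.79 to 19.9), the actin bundler gene Lcp1 11.8-fold (6.74 to 22.5) and Calml4 14.8-fold (5.55 to 55.7), all from 27 or fewer counts in mock. Tesc, Lcp1 and Calml4 thus reached 50 counts only in the transfectant library, where they were high. They are among the 7, so part of the 26.9% comes from genes admitted by their higher library. The shares of all genes pass through the same filter. Sri, the sorcin gene, was 2.65-fold and Rcn2 2.31-fold higher. Nucb2, a Golgi calcium-binding protein gene, was 2.45-fold lower.

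**Figure D5:**
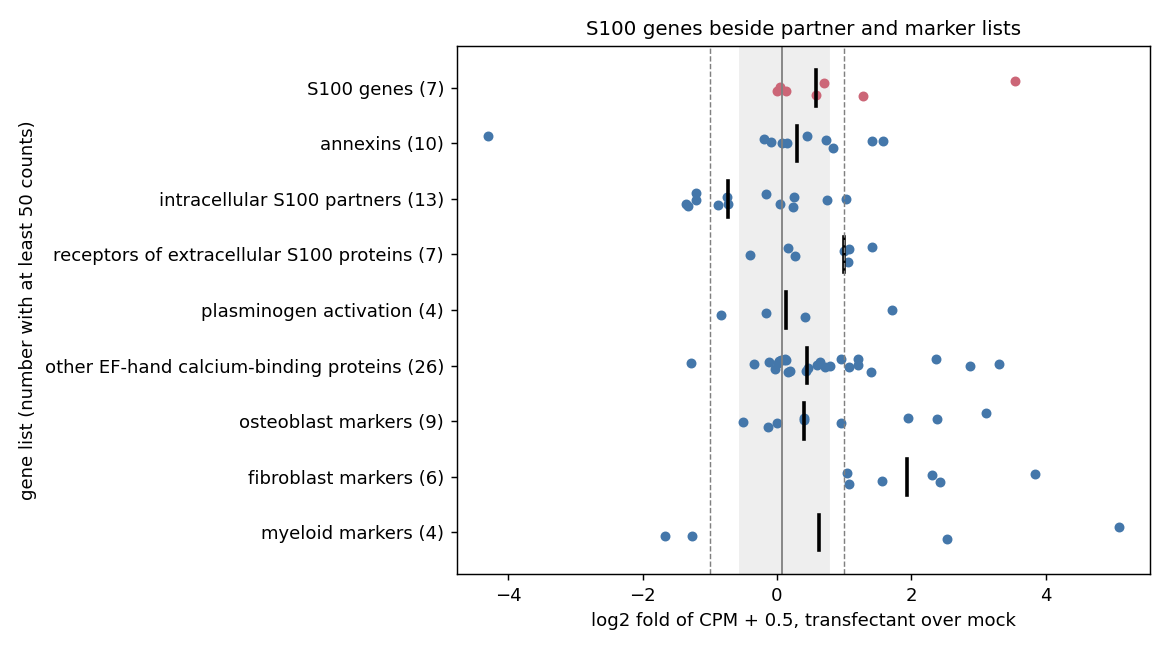
Each point is 1 gene with at least 50 counts in 1 library, by list, on the log2 fold of CPM + 0.5 (transfectant over mock). Black bars are list medians, dashed lines 2-fold, the grey line the median of all 11952 genes (0.07) and the grey band the middle 50% of them (-0.56 to 0.77). The S100 genes reach from -0.00 to 3.54, and all 6 fibroblast markers lie beyond 2-fold.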

How the data were processed

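RNA from both cultures was made into cDNA libraries with a SMART-Seq v4 kit, per the labels' protocols. The submitters' processing notes name DRAGEN without version or role, while build, annotation and strand handling are, from the sources used here, unknown. The deposited table holds the authors' estimated counts per gene, not normalised, and the authors' TPM values, scaled for gene length and depth. Lengths of genes are in bases, per the file headers. Fractional counts marked 11.0% of listed genes in each library and 33.6% of genes with at least 50 counts.

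Counts were rounded and scaled with TMM factors of 0.983 and 1.02 (edgeR 4.0.16, R 4.3.3). DESeq2 1.42.0 gave alternative size factors. Neither tool was used for a test, and no p-value was computed. Genes reaching 50 counts in 1 library were called higher or lower from a 2-fold difference on log2(CPM + 0.5), which understates differences of low genes. Printed ratios carry no pseudocount; their 95% intervals are Clopper-Pearson intervals given both counts, and those of levels are exact Poisson intervals. TPM intervals rescale those of the count. Reads without molecular identifiers are not independent molecules, so intervals and the floor of 3 counts cover counting error only. One count was worth 0.0542 CPM (mock) or 0.0411 CPM (transfectant). The procedure was tested on simulated data. The simulated counts held counting error only, so errors beyond it were not checked.

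The members and lists were chosen with earlier results of these data known. Named genes were all members, the other S100 genes, up to 6 genes per list and 10 between the S100 genes by largest absolute log2 fold. Anxa2, Myh9, Cacybp, Ager, the flanking genes, and the S100-like skin and marker genes under 50 counts were named after their values were seen, as were some markers. Not every gene under the rule is reported. Python 3.11.15, scipy 1.17.1, pandas 2.3.3 and matplotlib 3.10.9 did the rest.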

Additional observations from a re-analysis of the deposited data

How the results depend on the processing

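Centring within 10 bins of gene length was chosen after seeing the data. The number of S100 genes at least 2-fold higher was 2 with every scaling and pseudocount, the deposited TPM, a floor of 200 counts, length centring and calls that also needed a counting interval beyond 1, 3 without a floor (S100a16 enters) or at a fold of 1.5 (S100a6 enters), and 1 at a fold of 4, as the threshold itself sets. None was at least 2-fold lower in 12 alternatives. Across all genes, 10.5% were called higher and 8.50% lower without a floor. At a fold of 1.5 these shares were 30.7% and 23.9%, and at a fold of 4 they were 6.46% and 1.83%. S100a4 ranged from a log2 fold of 3.42 to 3.59, S100a11 from 1.16 to 1.33, S100a6 from 0.59 to 0.76 and S100a13 from 0.46 to 0.63. S100a16, with 0 counts in mock, ranged from 1.01 with a pseudocount of 2 to 4.4 with one of 0.1. S100a1 (0.04) and S100a3 (-0.00) changed sign under scaling, at -0.08 with upper quartile and 0.04 with total counts, and S100a3 was -0.36 in the deposited TPM. Upper quartile scaling moved the median of all genes from 0.07 to -0.04. Of 56 member values under alternatives, 8 moved from the main value by more than the margin of the counting interval, and 48 did not. The interval of S100a16 has no upper end, so its upward moves could not be counted. Of 81 list medians, 79 moved by less than the spread of the list. The exceptions were the myeloid markers at 5.09 with a floor of 200 counts and the chondrocyte markers at 0.11 without a floor, since the genes counted change. The plasminogen median ran from -0.16 to 0.22. No paired analysis was possible because neither group holds more than 1 library. Depth limits S100a16, S100a3 and the genes at 0.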

Other observations

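Gene sets that the deposited table itself assigns to S100 members were counted without those members, after the values above were known. Of 287 genes annotated to calcium ion binding with at least 50 counts, 98 (34.1%) had at least 2-fold more in the transfectant library and 25 (8.71%) at least 2-fold less, for a median log2 fold of 0.53, beside 19.7%, 11.9% and 0.07 over all genes. The narrower term calcium-dependent protein binding stood at 8 higher and 3 lower of 42 (median 0.13). Neutrophil degranulation, the Reactome pathway that holds S100a8, S100a9 and S100a11, had 79 higher and 16 lower of 273 (28.9% and 5.86%, median 0.34), while S100a8 and S100a9 themselves had no count. The pathway for metal sequestration by antimicrobial proteins, to which calprotectin belongs, had 0 other genes past 50 counts.

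Counts in this paragraph stand beside 19.7% of all genes at least 2-fold higher and 11.9% lower by as much. With so few genes in each set, they are not results about the sets. Dissolution of fibrin clot, the pathway of S100a10, had 3 higher and 0 lower of 7 other genes (median 0.45). Toll-like receptor regulation by endogenous ligands, which holds S100a1, S100a8 and S100a9, had 2 higher and 0 lower of 5 (median 0.85). Of the smaller marker lists, striated muscle had 2 genes past 50 counts and both were higher, Acta1 at 2.71 and 17.1 CPM and Des at 0.596 and 3.29 CPM (11 and 80 counts). Under 50 counts, Tnnt2 had 31 and 11 and Myh7 13 and 0, while the heart genes Myh6 and Actc1, of the tissue where S100a1 is best known, had 1 count in each library and 0 in both. Chondrocyte markers had 2 higher of 3, with Comp at 1.14 and 25.2 CPM, Acan at 0 in both, and Sox9 at 276 and 326 counts. Keratinocyte markers had 1 lower of 2, Krt14 at 40.8 and 0.411 CPM. Of the Schwann cell and melanocyte markers Pmel was past 50 counts, at 8 and 54, and Sox10 had 0 counts in both.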
